A study of Mus musculus with 12 samples.

Results

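Cytosolic ribosomal protein genes were higher in regulatory T cells (Tregs) of mice with the M176 form of Foxp3 than in wild-type (WT) Tregs, and in Tregs with the M354 form none passed the test against WT. Members were chosen by symbol: every gene named Rps or Rpl followed by a digit, without pseudogene symbols, whose brightest probe set naming only that gene lay above the median of its array on at least 2 of 12 arrays. Of 60 genes with such a symbol, 56 were members, out of 8918 genes tested. The 4 left out were Rpl10l, above the median on 1 array, and Rpl39l, Rpl3l and Rps6ka6, on 0 arrays. Among the members, 54 were above the median on all 12 arrays, Rps4l on 11 and Rps23rg1 on 8.

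The symbol does not always stand for a ribosomal protein. Core proteins of the ribosome made up 47 of the members, 20 of the small and 27 of the large subunit. Another 3, Rps27l, Rps4l and Rpl7l1, are paralogs of core proteins. The last 6 are no ribosomal proteins: the kinases Rps6ka3, Rps6ka5, Rps6kb2 and Rps6kl1, the Rps19-binding protein Rps19bp1, and Rps23rg1, a mouse retrogene derived from Rps23. A further 18 core proteins, among them Rps16, Rpl3 and Rpl11, were found only in probe sets that name several genes and were not tested gene by gene.

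Each ribosome joins a small subunit, which reads the mRNA, to a large subunit, which forms the peptide bonds, and each subunit is built from ribosomal RNA and many small proteins needed in matched amounts. Their mRNAs are among the most abundant of a cell, and many begin with a C and a run of pyrimidines through which the TOR kinase controls their translation. T cells raise ribosome production when they are activated and grow. Foxp3 is the transcription factor that defines Tregs.

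The RNA of each sample was read on an Affymetrix Mouse Gene ST array, with 2 arrays in each of 6 groups. M176 Tregs, M354 Tregs and WT Tregs were live CD4+ CD25-high spleen cells, sorted and then sorted again. They came from mice with the M176, M354 or WT Foxp3 allele. M176-transduced, M354-transduced and WT-transduced cells were conventional CD4+ T cells of WT mice that received the named form of Foxp3 by retrovirus in culture and were sorted for high Thy1.1. All samples came from male C57Bl/6 mice aged 6 weeks. Every transduced group received some form of Foxp3, so there is no comparison with cells lacking it. The labels give neither the amino acid changes behind M176 and M354 nor whether both arrays of a group stand for different mice or cultures. A p-value here therefore rests on a spread between arrays that may be only technical.

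The deposited values are linear intensities, with a median per array between 101.5 and 117.4, and brightness is a property of the probe set, so levels are compared only within a gene. A change is the difference of mean log2 intensities with its standard error (SE), and "called" means a Benjamini-Hochberg adjusted p under 0.05 over all genes tested, in limma's model of all 12 arrays. Foxp3 was 3442 and 3321 in M176 Tregs, against 5913 and 5327 in WT Tregs, a change of -0.73 ± 0.13 (SE, adjusted p = 0.000552), and between 5233 and 6163 on the 8 arrays of the other 4 groups.

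Some arrays stood apart from their partner. In M354 Tregs, 38 of the 47 core genes were higher on replicate 2, by a median of 0.32 (log2). In M354-transduced cells 43 of 47 were higher on replicate 1, with a median difference of -0.24 for replicate 2 minus replicate 1. The other 4 groups had median differences between -0.04 and 0.06. B cell markers were higher on replicate 2 of WT Tregs than on replicate 1, with summed intensities of 4980 and 2530 over 14 genes and with Cd79a at 399 and 94. The comparisons that use these arrays are also given without them.

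In M176 Tregs against WT Tregs, 36 of 56 members rose and 2 fell. Over all genes tested 13.4% were called higher and 11.3% lower, or 1196 higher of 2206 called, where quantile normalization gave 1124 of 2572. The members' median change was 0.64, against -0.04 for all genes. Among the core proteins 34 of 47 were called higher and 0 lower, with a median change of 0.77, and both M176 Treg arrays lay above both WT Treg arrays for 47 of 47. The same held for 30.3% of all genes tested. The small subunit had 15 of 20 called and a median of 0.86, and the large subunit 19 of 27 and a median of 0.71. Without replicate 2 of WT Tregs, the array with more B cell transcript, 27 members were called and their median change was 0.61. Without replicate 1 of M176 Tregs, 27 were called, with a median of 0.67.

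**Figure D1:**
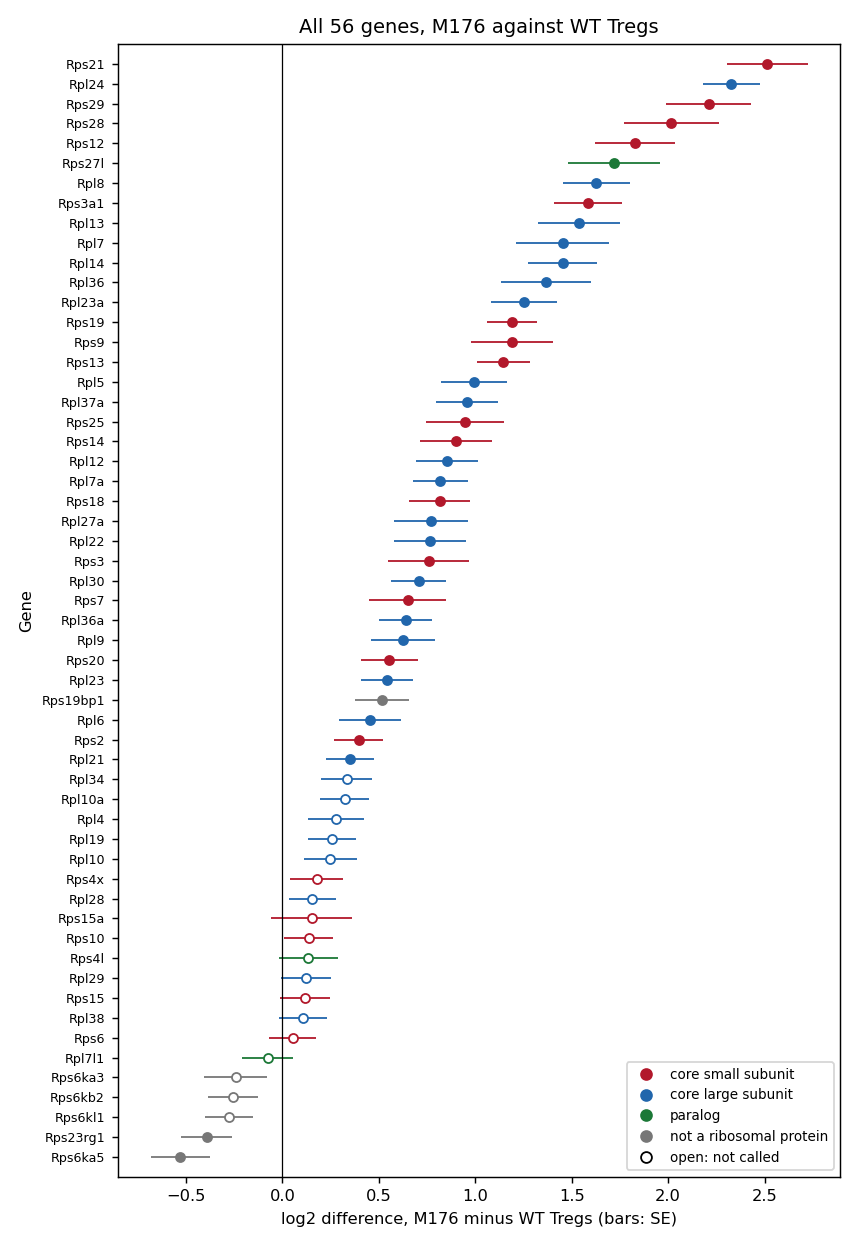
Change of each of the 56 members between M176 and WT Tregs, as a log2 difference with its SE, sorted by size. Colours give the role of the protein, filled points are called, and the core proteins lie between 0.05 (Rps6) and 2.51 (Rps21), all to the right of 0.

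Of the small subunit, Rps21 changed most. It was 1867 and 2123 in M176 Tregs, against 371 and 328 in WT Tregs. In M354 Tregs it was 269 and 429, which overlaps WT Tregs and lies far below either M176 Treg array. The change was 2.51 ± 0.21 (5.71-fold, adjusted p = 8.2e-07). Rps29, another protein of the small subunit, had 4617 and 4731 in M176 Tregs, against 1046 and 976 in WT Tregs, a change of 2.21 ± 0.22 (4.62-fold, adjusted p = 4.4e-06). Rps28 had 4733 and 4423 in M176 Tregs, against 1152 and 1109 in WT Tregs (2.02 ± 0.25, adjusted p = 2.96e-05). Rps12 followed at 4215 and 4306 in M176 Tregs, against 1220 and 1179 in WT Tregs. For these 4 genes both M176 Treg arrays were the highest of the 12. Rps3a1 rose by 1.58 with intensities of 896 and 774 in M176 Tregs, against 269 and 286 in WT Tregs.

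Of the large subunit, Rpl24 changed most. It was 2615 and 2692 in M176 Tregs, against 551 and 507 in WT Tregs, which is 2.33 ± 0.15 (5.02-fold, adjusted p = 5.71e-08). Rpl8, which lies near the peptidyl transferase centre, had 5127 and 5846 in M176 Tregs, against 1738 and 1806 in WT Tregs, a change of 1.63. Rpl13 was 2697 and 2598 in M176 Tregs, against 988 and 841 in WT Tregs, a change of 1.54. For these 3 genes, as for all 47 core genes, the arrays of both groups did not overlap. Rpl14 and Rpl7 each rose by 1.45, Rpl36 by 1.37 and Rpl23a by 1.25. Smaller called rises included Rpl37a at 0.96, Rpl12 at 0.85, Rpl7a at 0.82, Rpl30 at 0.71 and Rpl36a at 0.64.

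**Figure D2:**
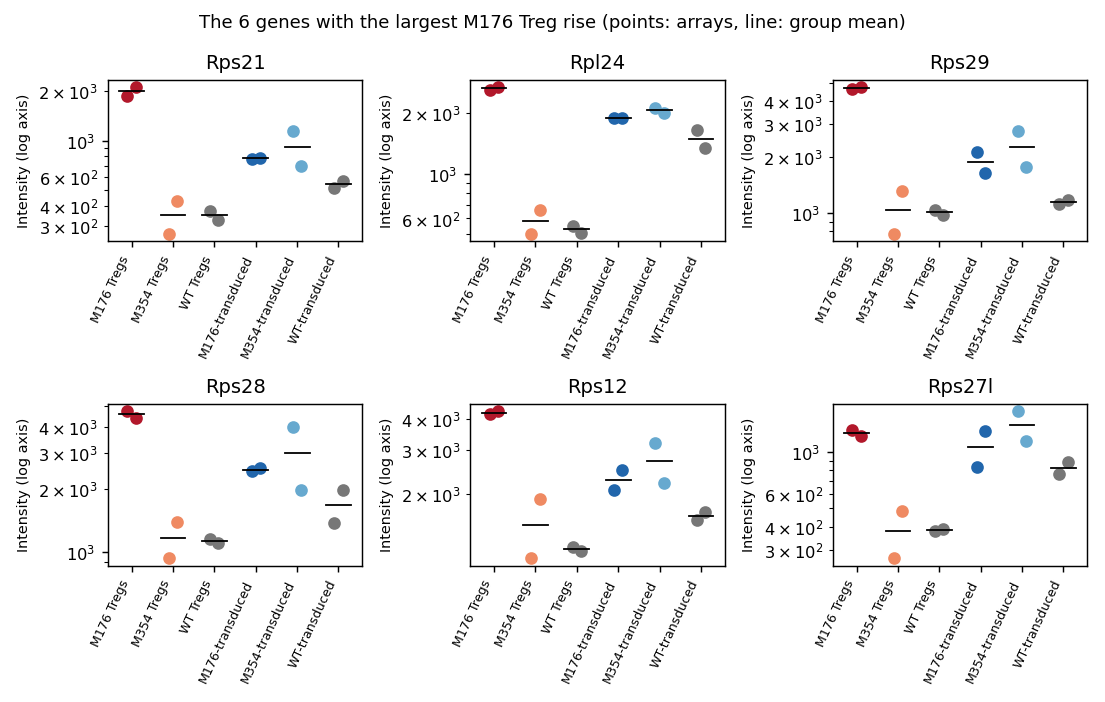
Intensity (log axis) on each array of the 6 genes with the largest M176 Treg rise, in M176, M354 and WT Tregs and in M176-, M354- and WT-transduced cells. Points are arrays and lines group means; for Rps21 the M176 Treg arrays are at 1867 and 2123 and the WT Treg arrays at 371 and 328, and for Rps27l 1 M354-transduced array, at 1645, lies above both M176 Treg arrays.

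Genes with known roles outside translation were also measured. Rpl5, which with Rpl11 and the 5S ribosomal RNA binds Mdm2 and so stabilises p53, was 7760 and 7936 in M176 Tregs, against 4012 and 3861 in WT Tregs, a change of 0.996 ± 0.17 (adjusted p = 0.000556). Rps19, whose human counterpart is often mutated in Diamond-Blackfan anaemia, was 3194 and 3096 in M176 Tregs, against 1469 and 1293 in WT Tregs, a change of 1.19 ± 0.13 (adjusted p = 1.18e-05). Rps14, lost in a human myelodysplastic syndrome, rose by 0.90 and Rpl22, needed for the development of mouse alpha-beta T cells, by 0.77. All 4 of these genes passed the test, but Rpl22 did not pass without WT Treg replicate 2 (0.63, adjusted p = 0.0608). Rps27l, the p53-inducible paralog of Rps27, rose by 1.72 ± 0.24, with 1308 and 1219 in M176 Tregs, against 378 and 388 in WT Tregs.

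Not every core gene passed. Rps6, the protein phosphorylated by the S6 kinases below TOR, was 14940 and 15398 in M176 Tregs, against 14390 and 14841 in WT Tregs, a change of 0.05 ± 0.12 with a 95% interval from -0.20 to 0.31 (adjusted p = 0.776). With cyclic loess normalization its change was -0.13. By adjusted p the core rises nearest the threshold were Rpl21, at 0.35 (adjusted p = 0.0488), and Rpl6, at 0.45 (adjusted p = 0.0483). The other 12 core genes that missed the threshold were Rpl34, Rpl10a, Rpl4, Rpl19, Rpl10, Rps4x, Rpl28, Rps15a, Rps10, Rpl29, Rps15 and Rpl38, with changes from 0.11 to 0.33. The paralogs Rps4l and Rpl7l1 had changes of 0.13 and -0.08 and were not called.

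Of the 6 members that are no ribosomal proteins 1 rose and 2 fell. Rps6ka5, a kinase of CREB and histone H3 also known as Msk1, fell to 116 and 123 in M176 Tregs, against 160 and 185 in WT Tregs, a change of -0.53 ± 0.15 (adjusted p = 0.0196). Rps23rg1 fell to 104 and 94 in M176 Tregs, against 135 and 126 in WT Tregs, a change of -0.39 ± 0.13 (adjusted p = 0.0384). Rps6ka5 was not called without M176 Treg replicate 1 or 2 or WT Treg replicate 2 (adjusted p from 0.0579 to 0.136). Rps23rg1 was not called without any 1 of the 4 M176 and WT Treg arrays (0.0806 to 0.212), nor with quantile (0.0505) or cyclic loess normalization (0.0545). Rps19bp1, a regulator of the deacetylase Sirt1, rose by 0.52 ± 0.14 (adjusted p = 0.012). The kinases Rps6ka3, Rps6kb2 and Rps6kl1 had changes of -0.24, -0.26 and -0.28 and were not called.

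The size of the rise differed with the brightness of the probe set. Of 24 members with a mean intensity from 1000 to 5000, 20 were called higher, with a median change of 1.07, against 15.5% of all genes in that range. Of the 18 above 5000, 8 were called higher, with a median of 0.29, against 17.1% of all genes there. Of the 14 below 1000, 8 rose and 2 fell, with a median of 0.61, against 13.1% called higher of all genes there. The dim members include 5 of the 6 that are no ribosomal proteins, among them both that fell. The bright and the dim bins hold under 20 members each. Over all genes tested the median change in these bins was -0.05, 0.07 and -0.04. Rps6, Rpl28, Rpl21 and Rps15, with mean intensities of 13872, 12616, 12502 and 12041, had changes of 0.35 or less. The highest intensity on an array was between 19073 and 22891, and the part of compressed signals in bright probe sets was not tested.

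**Figure D3:**
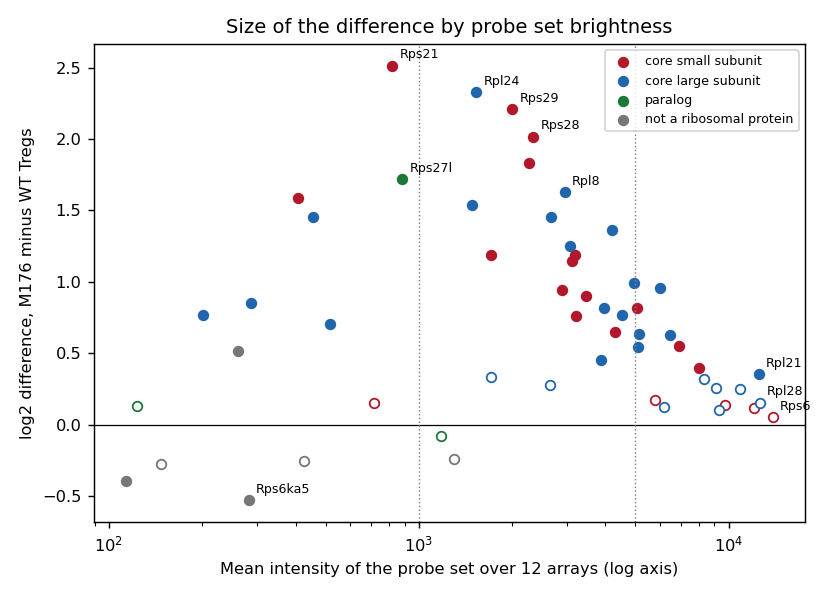
Change between M176 and WT Tregs on the log2 scale against the mean intensity of the probe set over 12 arrays (log axis), with dotted lines at 1000 and 5000. Filled points are called; the largest changes lie below 5000 and the genes above 5000 stay between 0.05 and 0.96.

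Other probe sets of the same genes gave the same direction, though sets of a gene may measure the same transcript and are not independent. The core members have 155 probe sets that name a single gene, of which 47 are the brightest sets used above. Among the others, both M176 Treg arrays lay above both WT Treg arrays on 108 of 108, with a median change of 0.92. The same held for 30.3% of all genes in the main test. In the 31 core genes with 2 or more sets naming only that gene, all sets changed in one direction, and the median range within a gene was 0.18. The widest was Rpl7a, from 0.82 to 1.81. Ribosomal protein genes have many processed pseudogenes, and a probe set may also bind their transcripts, so values of single genes are uncertain in that respect. Both pseudogene symbols with a probe set of their own also had higher mean levels in M176 than in WT Tregs, Rps19-ps3 by 1.14 and Rpl14-ps1 by 0.92. No p-value is given for them, and whether their probe sets bind the mRNA of the parent gene was not tested. Rpl14-ps1 was dim, with means of 117 in M176 Tregs and 62 in WT Tregs, and lay above the array median on 4 of 12 arrays.

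Promoters were read for the core genes because these members moved together and because the pyrimidine start is a known feature of their mRNAs. RefSeq windows on GRCm38.p6, from 250 bases before to 50 bases after the annotated start, were found for 37 of the 47 core genes (44 windows). A C at the annotated start followed by at least 4 pyrimidines was present in 8 genes, or 18.2% of the windows, against 2.51% of all 32851 windows. Those 8 are shown from 60 bases before the start to the 20th base of the transcript, with the run of pyrimidines at the start in capitals, in the order of the M176 Treg change.
Rps21, chr2:180257319-180257398, plus strand: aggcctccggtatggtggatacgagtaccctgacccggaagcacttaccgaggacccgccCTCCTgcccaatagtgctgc
Rpl14, chr9:120571457-120571536, plus strand: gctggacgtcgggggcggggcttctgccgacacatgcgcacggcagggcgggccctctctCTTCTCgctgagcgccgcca
Rps18, chr17:33955646-33955725, minus strand: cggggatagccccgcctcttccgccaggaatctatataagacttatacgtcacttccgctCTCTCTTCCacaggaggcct
Rpl28, chr7:4792905-4792984, plus strand: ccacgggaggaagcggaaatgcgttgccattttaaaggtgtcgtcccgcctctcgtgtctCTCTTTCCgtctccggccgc
Rps15a, chr7:118116128-118116207, minus strand: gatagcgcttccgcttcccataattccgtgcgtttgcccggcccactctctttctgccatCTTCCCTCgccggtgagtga
Rps10, chr17:27635225-27635304, minus strand: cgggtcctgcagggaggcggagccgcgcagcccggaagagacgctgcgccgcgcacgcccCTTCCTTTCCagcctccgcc
Rpl38, chr11:114668520-114668599, plus strand: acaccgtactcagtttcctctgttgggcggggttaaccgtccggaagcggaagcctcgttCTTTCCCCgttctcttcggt
Rps6, chr4:86857348-86857427, minus strand: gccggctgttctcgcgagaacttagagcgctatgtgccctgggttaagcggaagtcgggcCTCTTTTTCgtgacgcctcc

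Of these 8 genes 3, Rps21, Rpl14 and Rps18, were called higher in M176 Tregs, and the median change was 0.15. Of the 29 core genes whose annotated start lacks the feature 22 were called, with a median of 0.77. The run was 5 or 6 bases long in Rps21 and Rpl14 and 8 to 10 in the genes that were not called, while Rps18, which was called, has 9. These are descriptions of annotated starts, which need not be the starts used in T cells, and the uncalled genes of this group include some of the brightest probe sets.

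Other motifs were searched on both strands of the same windows, and none of them contains another. CCGGAAG, the core bound by ETS factors, was in 31.8% of the core windows and 8.86% of all windows. GCCATNTT, the core of the YY1 site, was in 22.7% and 6.05%. The E-box CACGTG, bound by Myc and others, was in 15.9% and 7.15%. TATAAA was in 9.1% and 13.62%. Genes with the ETS core had a median change of 0.45 and 8 of 13 called, and the 24 without it 0.79 and 17 called. A match is a description of these letters and not of a factor's binding.

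Several core genes carry small nucleolar RNAs (snoRNAs), guides of ribosomal RNA modification, in their introns. A snoRNA lies inside 18 core genes by RefSeq. Of these hosts 16 were called higher in M176 Tregs, with a median of 0.76, against 18 of the 29 core genes without one, with a median of 0.77. Snord15b, inside Rps3, averaged 2403 ± 262 in M176 Tregs and 452 ± 5.07 in WT Tregs (SD, n = 2 each), a change of 2.40. Snord15a, in the same gene, changed by 2.39, Snora21 in Rpl23 by 1.87, Snora3 in Rpl27a by 1.85, Snord73b in Rps3a1 by 1.40 and Snora70 in Rpl10 by 0.78, and all were called. Snord16a and its host Rpl4 each had a change of 0.28 and were not called. Over the 36 snoRNA genes tested 21 rose and 0 fell, where 13.4% of all genes tested were called higher and 11.3% lower. The mean log2 level of those 36 was 9.98 and 10.04 on the M176 Treg arrays, between 8.66 and 8.87 on the other Treg arrays, and higher on replicate 1 than on replicate 2 in M354-transduced cells, at 9.64 and 8.75. It also differed between replicates 1 and 2 of M176-transduced cells, at 8.86 and 9.46, and of WT-transduced cells, at 8.61 and 9.18, where the core genes differed by a median of 0.06 and 0.001. The part of RNA preparation in these levels was not tested.

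Other genes of translation were read from lists chosen with earlier results of these data known. Between M176 and WT Tregs 13.4% of all genes tested were called higher and 11.3% lower. In M176 Tregs against WT Tregs, 45 of 61 mitochondrial ribosomal protein genes rose and 0 fell, with a median of 0.61, led by Mrps36 at 1.77 and Mrpl23 at 1.51. Of 5 cytosolic ribosomal proteins with other symbols 3 rose: Rpsa by 1.06, Fau by 0.59 and the stalk protein Rplp1 by 0.50. Of 29 initiation factors 11 rose, with Eif2s2, a subunit of eIF2, at 1.15, Eif1ax at 1.13 and the eIF3 subunits Eif3e and Eif3m at 1.08 and 1.04. Of 7 genes listed with the elongation factors 2 rose, Eef1e1 by 0.55 and Eef1d by 0.54, too few to set against the share of all genes. Of 52 ribosome assembly and RNA polymerase I genes 16 rose and 1 fell, with Mrto4 at 1.14, the snoRNA-binding protein Nop10 at 1.13, Imp3 at 0.96 and the polymerase subunit Polr1d at 0.84.

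Of 25 genes of the TOR pathway 5 rose and 4 fell in M176 Tregs against WT Tregs, shares of 20% and 16% that are near the 13.4% and 11.3% of all genes tested. Rheb, the activator of TOR complex 1, changed by 0.72, Lamtor1 by 0.65 and Rraga by 0.62, while Mtor itself was lower at -0.54. In the Myc network Myc averaged 2404 ± 18.7 in M176 Tregs and 1751 ± 69.9 in WT Tregs (SD, n = 2 each), a rise of 0.46 (adjusted p = 0.0211), and Mga, a partner of Max, fell by 0.50. Of 7 p53 targets Fas rose by 0.40 and Sesn2 fell by 0.43. In each of these lists of 7 genes, 1 called in a direction is 14.3%, again near the shares over all genes.

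Markers of other cells were read beside these results. B cell marker sums were 2335 and 2263 in M176 Tregs, against 2530 and 4980 in WT Tregs. Myeloid and granulocyte sums over 10 genes were 3301 and 3635 in M176 Tregs, against 2668 and 2519 in WT Tregs, of which Cst3 gave 2764 and 3109 in M176 Tregs, against 2086 and 1971 in WT Tregs, while S100a8 lay between 30 and 36. The sums of CD4 T cell and Treg markers over 15 genes were 50486 and 48594 in M176 Tregs, against 63696 and 60670 in WT Tregs. Of these genes 8 of 15 were called lower, against 11.3% of all genes tested. Cd3d went the other way, at 2261 and 1890 in M176 Tregs, against 1064 and 802 in WT Tregs. Dendritic cell sums over 9 genes were 1222 and 1119 in M176 Tregs, against 1049 and 1009 in WT Tregs. Of these, Ccr9 gave 394 and 298 in M176 Tregs, against 181 and 212 in WT Tregs, and Bst2 360 and 381, against 311 and 271. Itgax was 64 and 50 in M176 Tregs, against 69 and 66 in WT Tregs, and Tcf4 113 and 94, against 122 and 143. CD8 T and NK cell sums over 10 genes were 2030 and 1711 in M176 Tregs, against 2366 and 2318 in WT Tregs. Within them Gzmb was 48 and 53 in M176 Tregs, against 293 and 418 in WT Tregs. Cd8b1 went the other way, at 693 and 547 in M176 Tregs, against 511 and 482 in WT Tregs. Plasma cell sums over 5 genes lay between 596 and 849 on the Treg arrays, and erythroid sums over 5 genes between 443 and 591. The part of these differences in the ribosomal protein result was not tested, and in a bulk sample a change in the cells present and a change in RNA per cell cannot be told apart.

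In M354 Tregs against WT Tregs, 0 of 56 members were called by limma, and 0 had an unadjusted p under 0.05, while 1.81% of all genes were called in either direction. The members' changes ran from -0.29 (Rps6ka3) to 0.27 (Rps12), with a median of -0.003, against -0.04 for all genes. Rps21 averaged 349 ± 113 in M354 Tregs and 349 ± 30.9 in WT Tregs, a change of -0.04 with a 95% interval from -0.48 to 0.40. Rps29 averaged 1048 ± 386 in M354 Tregs and 1011 ± 49.9 in WT Tregs, a change of 0.002 with an interval from -0.46 to 0.46. For Rpl24 the change was 0.12, with an interval from -0.19 to 0.43. These intervals leave room for a small change but do not reach the M176 changes of the same genes. The median was 0.12 without M354 Treg replicate 1, -0.13 without its replicate 2 and -0.03 without WT Treg replicate 2, with 0 members called in each case. The lists of mitochondrial ribosomal proteins, initiation factors, elongation factors, assembly factors, TOR pathway genes, Myc network genes, p53 targets and snoRNAs also had 0 called genes.

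**Figure D4:**
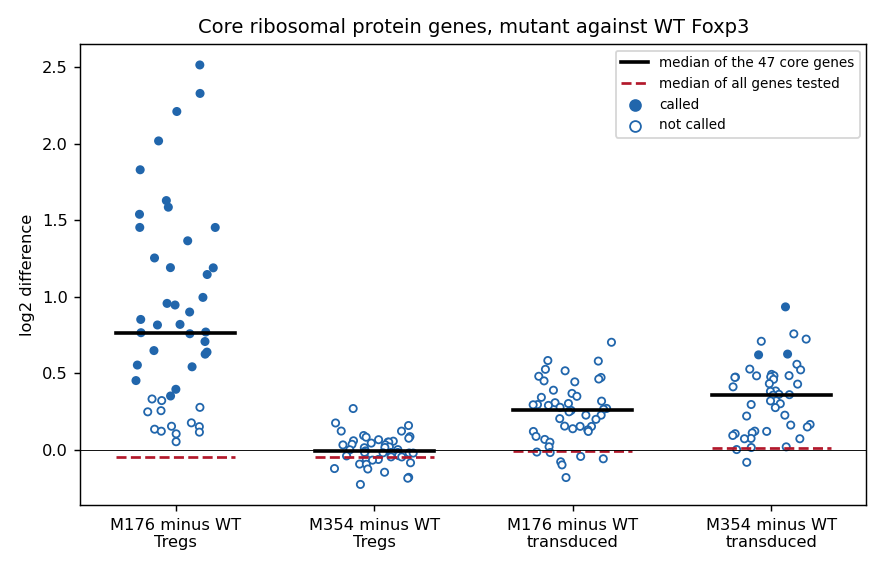
Change of the 47 core genes (log2) between each mutant and WT, in Tregs and in transduced cells. Points are genes, filled where called, with solid lines at their medians (0.77, -0.01, 0.26 and 0.36) and dashed lines at the medians of all genes tested.

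In M354 Tregs against M176 Tregs, 36 of 56 members fell and 3 rose, and over all genes 18.1% were called lower and 12.7% higher (1129 higher of 2747 called, and 1584 of 3026 with quantile normalization). This comparison shares the M176 arrays with the one above and is given for its own values. The median change was -0.68, against -0.02 for all genes, and 34 of 47 core genes fell and 0 rose. Without M354 Treg replicate 1 the median was -0.48 and 26 members were called. Rps21 fell by 2.55 (5.86-fold lower, adjusted p = 3.23e-07), Rps29 by 2.21, Rpl24 by 2.20, Rps27l by 1.80, Rpl8 by 1.75, Rpl14 by 1.68, Rps12 by 1.56, Rpl13 by 1.45 and Rpl7 by 1.44, and Rps28 lay between Rpl24 and Rps27l. Both M354 Treg arrays lay below both M176 Treg arrays for 44 of 47 core genes, against 37.1% of all genes tested. The 3 that rose are no ribosomal proteins: Rps6ka5 by 0.54, Rps23rg1 by 0.49 and Rps6kl1, a protein related to the S6 kinases, by 0.43. Each of these rises missed the threshold without 1 M354 Treg array and without 1 M176 Treg array.

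**Figure D5:**
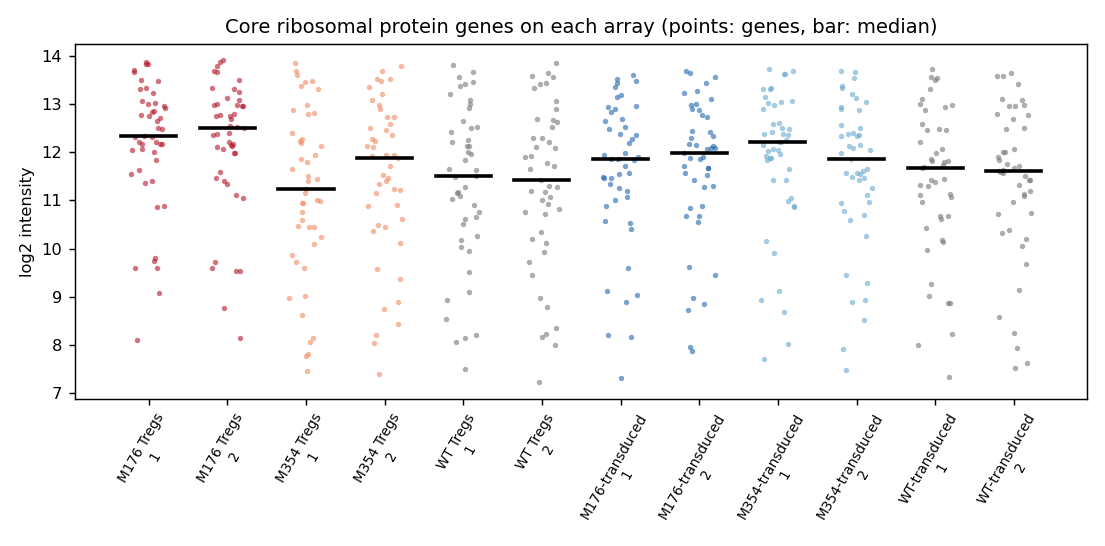
Log2 intensity of the 47 core genes (points) on each of the 12 arrays, with the median as a bar. The medians are 12.33 and 12.50 in M176 Tregs, 11.24 and 11.88 in M354 Tregs and 11.50 and 11.42 in WT Tregs, and lie between 11.61 and 12.20 in the transduced groups.

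Transduced cells showed smaller differences. In M176-transduced against WT-transduced cells 0 of 56 members were called by limma, with 14 at an unadjusted p under 0.05, and 0.516% of all genes were called in either direction. The median change was 0.22, against -0.01 for all genes, and 40 of 47 core genes had a positive change. Rps29 was 2138 and 1646 in M176-transduced cells, against 1127 and 1178 in WT-transduced cells, without overlap (0.70, adjusted p = 0.378). Rps21 was 772 and 786 in M176-transduced cells, against 515 and 568 in WT-transduced cells, also without overlap (0.53, adjusted p = 0.705). Both M176-transduced arrays lay above both WT-transduced arrays for 26 of 47 core genes and for 1197 of 8918 genes tested. Foxp3 had a change of -0.15 and was not called. Mxi1, a Myc antagonist, was the only called gene of the translation lists, at -0.73.

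In M354-transduced against WT-transduced cells 3 members rose, where 0.359% of all genes were called higher. Rps29 was 2746 and 1765 in M354-transduced cells, against 1127 and 1178 in WT-transduced cells, a change of 0.93 ± 0.22 (adjusted p = 0.041). Rps19 was 1877 and 1552 in M354-transduced cells, against 1154 and 1060 in WT-transduced cells, a change of 0.63 ± 0.13 (adjusted p = 0.0203). Rpl36a was 5286 and 5170 in M354-transduced cells, against 3726 and 3103 in WT-transduced cells, a change of 0.62 ± 0.14 (adjusted p = 0.0315). Both M354-transduced arrays lay above both WT-transduced arrays for these 3 genes, for 31 of 47 core genes and for 1802 of 8918 genes tested. The members' median change was 0.31, against 0.01 for all genes, and 46 of 47 core genes had a positive change. Without M354-transduced replicate 1, the array on which the core genes were higher, the median was 0.17 and 0 members were called, and 0 were called without WT-transduced replicate 2. Without either of the M176 Treg arrays, which enter only the shared estimate of the spread, Rps19 alone was called. The assembly factor Wdr12 rose by 0.97, and the Myc antagonists Mxd1 and Mxi1 fell by 0.78 and 0.77. Foxp3 had a change of -0.12. Cell markers also differed. Of 7 CD8 T and NK cell markers tested Gzma and Klrd1 rose, each by 1.06. The summed level over 10 genes was 11419 and 11990 in M354-transduced cells, against 10831 and 9760 in WT-transduced cells. Of it Gzmb gave 5731 and 5915 in M354-transduced cells, against 5549 and 5356 in WT-transduced cells. Cd8a overlapped, at 348 and 428 in M354-transduced cells, against 449 and 371 in WT-transduced cells. Of 15 CD4 T cell and Treg markers 5 fell (Gpr83 by 1.22, Lrrc32, Tnfrsf4, Izumo1r and Tnfrsf18), with sums of 50385 and 53218 in M354-transduced cells, against 60440 and 61808 in WT-transduced cells. Their part in the rise of the 3 members was not tested.

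Between M354-transduced and M176-transduced cells limma called 0 of 56 members, with 1 at an unadjusted p under 0.05, and 0.0785% of all genes. The median change was 0.12, and it was -0.01 without M354-transduced replicate 1. Foxp3 had a change of 0.03.

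The effect of M176 was then compared between the systems, as M176 minus WT in Tregs less M176 minus WT in transduced cells. Here 14 members had a larger value in Tregs and 0 a smaller one, where 4.03% of all genes were called higher. The median difference was 0.38, against -0.02 for all genes. It was 1.99 ± 0.30 for Rps21 (adjusted p = 0.0011) and 1.98 ± 0.21 for Rpl24 (adjusted p = 4.19e-05). Rps29 followed at 1.51, Rps28 at 1.43, Rps27l at 1.39, Rps12 at 1.35, Rpl8 at 1.33 and Rps3a1 at 1.22. Rpl13, Rpl14, Rps13, Rpl23a, Rpl37a and Rps19 completed the set, with differences from 0.74 to 1.07. The count was 4 without M176-transduced replicate 1, 5 without M176 Treg replicate 1, 8 without M176 Treg replicate 2 and 10 without WT Treg replicate 2. Rps21, Rpl24, Rps29 and Rpl8 were called in the first and in the second of these fits. Among the lists, 15 of 61 mitochondrial ribosomal proteins were also called higher. Of 29 initiation factors 2, Eif2s2 and Eif3e, were called higher, a share of 6.9% that is near the 4.03% of all genes.

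For M354 the same difference called 0 members by limma, with 13 at an unadjusted p under 0.05, and 1.08% of all genes in either direction. The median was -0.28, against -0.07 for all genes. Without M354 Treg replicate 2, Rps29 at -1.32 and Rps7 at -1.11 were called. With 0 members called, the median was -0.15 without M354 Treg replicate 1, -0.19 and -0.44 without M354-transduced replicate 1 and 2, and -0.31 without WT Treg replicate 2.

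WT Tregs and WT-transduced cells differ in origin, culture and sort, and 5 members were higher and 6 lower in WT Tregs. Over all genes 10.9% were called higher and 19.4% lower (968 higher of 2696 called, and 1302 of 2609 with quantile normalization), and the median change was -0.03 for members and -0.08 for all genes. Rpl24 was 551 and 507 in WT Tregs, against 1640 and 1339 in WT-transduced cells, a change of -1.49 ± 0.15 (adjusted p = 7.24e-07). Rps6ka5 was 160 and 185 in WT Tregs, against 514 and 374 in WT-transduced cells (-1.35), and Rps27l was 378 and 388 in WT Tregs, against 764 and 882 in WT-transduced cells (-1.10). Rps21, Rpl37a and Rpl8 fell by 0.63, 0.52 and 0.48. The higher members were Rpl36a at 0.54, Rpl38, which in mice is needed for the translation of certain Hox mRNAs, at 0.51, the X-linked Rps4x at 0.43, Rps23rg1 at 0.42 and Rps6kl1 at 0.39. The split depended on the scaling: 9 were called higher and 3 lower with quantile normalization, and 7 and 4 with cyclic loess, where the median of all genes was -0.08 as deposited, 0.03 with quantile normalization and -0.02 with cyclic loess. Without WT Treg replicate 1 the calls numbered 5, without WT Treg replicate 2 they numbered 8, and without WT-transduced replicate 2 they numbered 7. CD8 T and NK cell marker sums were 2366 and 2318 in WT Tregs, against 10831 and 9760 in WT-transduced cells, and their part in this comparison was not tested.

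Across all 6 groups M176 Tregs had the highest mean for 46 of 47 core genes, and M354-transduced cells for the remaining 1. Both M176 Treg arrays were the highest of all 12 for 39 core genes. The lowest mean was in WT Tregs for 15 core genes, in M354 Tregs for 13 and in WT-transduced cells for 13. It was in M176-transduced cells for 4 and in M354-transduced cells for 2, so no group was the lowest for most core genes. Among the transduced groups, 46 of 47 core genes had a positive change for M354 minus WT. For M176 minus WT 40 were positive, and for M354 minus M176 also 40.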

How the data were processed

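Arrays were Affymetrix Mouse Gene ST. The authors used Affymetrix Power Tools and RMA, per the submitters' processing notes, to correct background, align arrays and combine probes; the sources used here give no versions, genome build or probe set library. The deposited values are intensities on a linear scale for 20716 probe sets, with no depth, so the 2 arrays per group limit the precision. Probe sets naming 1 gene gave 16426 genes, the brightest by mean standing for each. Genes above the median (percentile 50) of their array on 2 or more arrays were tested, 8918 in all. The table holds 29, 15 and 226 named genes of chromosomes 1, 10 and 11, and 8 members lie there.

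Log2 intensities were fitted with limma 3.58.1 in R 4.3.3 (statmod 1.5.0), with 1 mean per group, no block, 6 residual and 10.9 prior degrees of freedom, and 9 comparisons. The code was tested on simulated data. Groups come from the sample labels. Named genes are Foxp3, up to 10 called rises and 10 called falls per comparison, called members against the majority, members fixed by role (of which Rpl11, Rpl22l1, Rps6ka1 and Rps6kb1 have no tested probe set of their own here), up to 4 genes per list, and members beside the limit of the rule; other names were chosen after their values were seen. Members and lists were chosen with earlier results of these data known. Alternatives were normalization, filter, probe set rule, variance model, samples in the fit, replicate block, and each array left out. Promoter windows are RefSeq's on GRCm38.p6.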

Additional observations from a re-analysis of the deposited data

Results flagged for a closer look

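The effect of M176 on members differed between Tregs and transduced cells, by limma's test of the difference itself (M176 minus WT in Tregs, less M176 minus WT in transduced cells). It was called for 14 members, each with a larger value in Tregs, where 4.03% of all genes tested were called higher. With quantile normalization fewer members were called. Of the 10 with the largest differences, Rps28 and Rpl13 were then not called (limma, adjusted p = 0.0886 and 0.125). Rpl13 also missed the threshold with cyclic loess normalization and with the replicate block (limma, adjusted p = 0.0728 and 0.0601). The 10 largest differences (log2) were 1.99 for Rps21, 1.98 for Rpl24, 1.51 for Rps29, 1.43 for Rps28, 1.39 for Rps27l, 1.35 for Rps12, 1.33 for Rpl8, 1.22 for Rps3a1, 1.07 for Rpl13 and 1.06 for Rpl14.

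Probe sets that name several genes, which no comparison used, were read because 18 core proteins have no other. Of 194 such sets with a ribosomal protein among their names, 191 had both M176 Treg arrays above both WT Treg arrays and 0 had both below, with a median difference of 0.55. Over all genes tested 30.3% had both M176 Treg arrays above. Many of these sets name a gene that is also a member, such as Rpl21, Rps2 or Rpl7a, and several sets often name the same gene. The count is therefore of probe sets, and not of the 18 core proteins.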

How the results depend on the processing

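Calls of members between M176 and WT Tregs numbered 30 to 39 under the other settings, against 38, and 27 to 38 with an array left out. Quantile normalization moved the median change there to 0.434 and, between M354 and M176 Tregs, to -0.388, against 0.644 and -0.679; with an array left out the second ran from -0.825 to -0.475. In M176-transduced against WT-transduced cells, fitting only the groups compared called 1 member, Rps29, against 0. In M354-transduced against WT-transduced cells, 1 member (Rps19) was called with quantile normalization, with cyclic loess and with the replicate block, and 0 with only the groups compared, against 3; leaving out an array gave 0 to 4 (0 without M354-transduced replicate 1 or WT-transduced replicate 2, 1 without either M176 Treg array). The difference in the M176 effect between systems had 8 calls with quantile normalization, against 14, and 4 to 16 with an array left out (4 without M176-transduced replicate 1, 5 and 8 without M176 Treg replicate 1 and 2). That of M354 had 0 to 2 (2 without M354 Treg replicate 2). WT Tregs against WT-transduced cells had 7 calls over core proteins only, a count added after seeing the data, against 11, and 5 to 13 with an array left out (5 without WT Treg replicate 1, 7 without WT-transduced replicate 2). Rps6 in M176 against WT Tregs turned to -0.13 with cyclic loess (adjusted p = 0.387). Of 54 results for single genes, 31 kept direction and call under every alternative. The cause of these changes was not tested, beyond the fewer arrays or genes in a fit. Taken by replicate number, deviations correlated between -0.551 and 0.25 over 15 pairs of groups. The lowest value was between M354-transduced and WT-transduced cells. A factor shared by arrays of unlike replicate number was not tested, and a block on that number cannot cover it. With the replicate block 36 members were called between M176 and WT Tregs.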
